A study of Mus musculus with 18 samples.

Results

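The 33 genes described here serve 2 linked stress pathways of the mouse CD8 T cell, the amino acid response run by the transcription factor ATF4 and the unfolded protein response of the endoplasmic reticulum (ER), in which XBP1 acts. They were taken by gene symbol from a list and are 33 of the 18194 genes that the array reads with probe sets of a single symbol. The ATF4 arm holds 16 of them and the ER and XBP1 arm 17. A gene with several probe sets was read from its brightest. Of the 33, 32 lay above the filter value of 4.06 (log2) on at least 2 arrays and were tested. The cystine transporter gene Slc7a11 was on no array above that value (2.62 to 3.21) and was not tested.

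RNA came from CD8 T cells of F5 mice, whose T cells carry a transgenic T cell receptor, with C57Bl/6 as the genotype label. Naive cells and TIM memory cells were sorted from spleen by flow cytometry. TIM cells arose from naive F5 mice given the NP68 peptide in 2 immunisations and were taken at day 45, so every group shares 1 receptor and the memory cells come from peptide, not from infection. The 18 arrays form 8 groups: naive cells ex vivo, in IL-7 and in IL-4 with IL-7 (2 arrays each), and memory cells ex vivo (4 arrays), in medium alone, in IL-7, in IL-4 and in IL-4 with IL-7 (2 arrays each). Culture lasted 20 hours, with IL-7 at 10 ng/mL and IL-4 at 20 ng/mL where added. Only the ex vivo arrays are titled as biological replicates, and no label says whether animals were pooled.

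When amino acids run short or the ER is overloaded, kinases such as GCN2 and PERK phosphorylate the initiation factor eIF2α, general translation slows and ATF4 is made. ATF4 switches on genes that synthesise, import or save amino acids, among them asparagine synthetase, the serine and mitochondrial folate enzymes and the leucine carrier SLC7A5 with SLC3A2. In the ER the sensor IRE1α, the product of Ern1, splices the Xbp1 message, and the XBP1 protein raises chaperones, folding enzymes and the machinery that removes misfolded proteins. ATF6, a second ER sensor, acts on many of the same genes through the ER stress response element (ERSE). T cells draw on both pathways when they grow, and XBP1 is best known for its place in antibody-secreting plasma cells.

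The 2 arms differed in the sequence just before their genes, which is shown first because the later results are read by arm. The arms were listed by known targets and function, so this difference partly follows from that choice and is no test of the split. RefSeq promoter windows of assembly GRCm38.p6, from 250 bases before to 50 after the gene start, were found for 30 of the 33 genes, 15 in each arm. Slc7a5, Atf6 and Manf had no entry. Both strands were searched for the ERSE in a single spelling: CCAAT, then 9 bases of any kind, then CCACG. Other forms of the element were not searched, so a window without this match may hold one. The match was present in 7 of 15 ER arm windows and 0 of 15 ATF4 arm windows, against 37 of 27025 genes (0.137%). The sites follow, read on the strand that carries the motif, with the fixed letters in capitals and the spacer in lower case. Hsp90b1 has a pair of them.
Hspa5: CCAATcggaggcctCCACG
Hsp90b1: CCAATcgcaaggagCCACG
Hsp90b1: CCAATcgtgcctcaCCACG
Dnajc3: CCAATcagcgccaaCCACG
Pdia6: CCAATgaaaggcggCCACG
Calr: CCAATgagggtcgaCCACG
Canx: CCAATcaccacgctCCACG
Creld2: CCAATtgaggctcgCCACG

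A shorter match, TGATGNAA, the core of the amino acid response element that ATF4 binds with its partners, was in 4 of 15 ATF4 arm windows (Trib3, Asns, Slc7a11 and Chac1) and 1 of 15 ER arm windows (Herpud1), against 4.51% of genes. TGACGTGG, the core of the unfolded protein response element, was in 0 of 30 windows (0.714% of genes). The STAT6 palindrome, TTC and GAA with 4 bases of any kind between them, was in 2 (Shmt2 and Chac1) against 8.01% of genes. These are letter matches and not measured binding. The 250 bases before the start are printed, on the gene's strand with the match in capitals, for the 4 genes with an upstream match to either element that passed the test in at least 1 comparison. Hspa5 (chr2:34771840-34772089, plus strand) and Creld2 (chr15:88819396-88819645, plus strand) carry the ERSE. Asns (chr6:7693210-7693459, minus strand) and Herpud1 (chr8:94386179-94386428, plus strand) carry the amino acid response element core. For Trib3, whose match lies after the gene start, 30 bases around it are given (chr2:152344028-152344057, minus strand).
Hspa5: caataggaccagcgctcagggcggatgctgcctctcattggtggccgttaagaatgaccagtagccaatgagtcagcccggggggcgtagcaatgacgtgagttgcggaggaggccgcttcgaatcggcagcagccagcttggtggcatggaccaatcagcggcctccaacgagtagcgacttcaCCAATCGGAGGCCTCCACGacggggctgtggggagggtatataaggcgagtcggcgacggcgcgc
Creld2: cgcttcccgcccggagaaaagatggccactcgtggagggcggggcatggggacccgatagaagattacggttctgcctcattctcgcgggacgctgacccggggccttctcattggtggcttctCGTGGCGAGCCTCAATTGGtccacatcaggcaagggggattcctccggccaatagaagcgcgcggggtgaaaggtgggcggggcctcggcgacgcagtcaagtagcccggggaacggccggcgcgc
Asns: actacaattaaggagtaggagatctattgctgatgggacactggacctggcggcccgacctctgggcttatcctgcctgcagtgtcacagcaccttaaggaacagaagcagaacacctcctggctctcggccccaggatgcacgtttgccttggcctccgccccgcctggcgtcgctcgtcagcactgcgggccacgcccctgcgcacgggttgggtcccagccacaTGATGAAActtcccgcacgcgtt
Herpud1: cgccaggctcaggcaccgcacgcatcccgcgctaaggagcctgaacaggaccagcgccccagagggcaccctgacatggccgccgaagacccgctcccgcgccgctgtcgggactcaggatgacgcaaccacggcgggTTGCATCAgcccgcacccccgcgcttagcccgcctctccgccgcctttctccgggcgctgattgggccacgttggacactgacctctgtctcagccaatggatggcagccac
Trib3: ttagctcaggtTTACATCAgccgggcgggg

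All values below are log2 values made with the RMA method, and a difference of 1 on this scale is a doubling. Each comparison is a contrast in a single limma fit over the 18 arrays, and a gene passed the test, and was called higher or lower, where its adjusted p over the 13770 genes tested was under 0.05. Because the RNA is from bulk cells, fewer cells making a message and less message per cell cannot be told apart. Array medians lay between 4.62 and 4.76. The CD8 T cell list (7 of 8 markers found by symbol, all above the filter value) averaged 11.5 to 12.2 on every array. The plasma cell list (5 of 6 found) averaged 4.36 to 5.74. One array stood apart. Array 2 of memory cells in medium resembled ex vivo memory array 2 most (r = 0.995 over the genes tested, with an SD of the difference of 0.24) and not the other medium array (r = 0.956). Over the 33 genes its median distance was 0.17 from the ex vivo memory mean and 0.69 from the IL-7 memory mean. For medium array 1 the same distances were 0.85 and 0.14. The counts for each comparison are therefore given with and without medium array 2, which also enters the shared estimate of the spread. The Gapdh control's 3′ minus 5′ difference was 2.07 to 2.69 ex vivo, 2.67 to 3.05 in cultured naive cells, 2.81 to 3.36 in cultured memory cells and 2.35 on medium array 2. It thus moved with culture, and its part in the culture differences was not tested. The Actb difference was lowest in naive cells in IL-7, at 1.64 and 1.63, below the 16 other arrays (1.86 to 2.25), and its part in the results that use those 2 arrays was not tested.

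**Figure D1:**
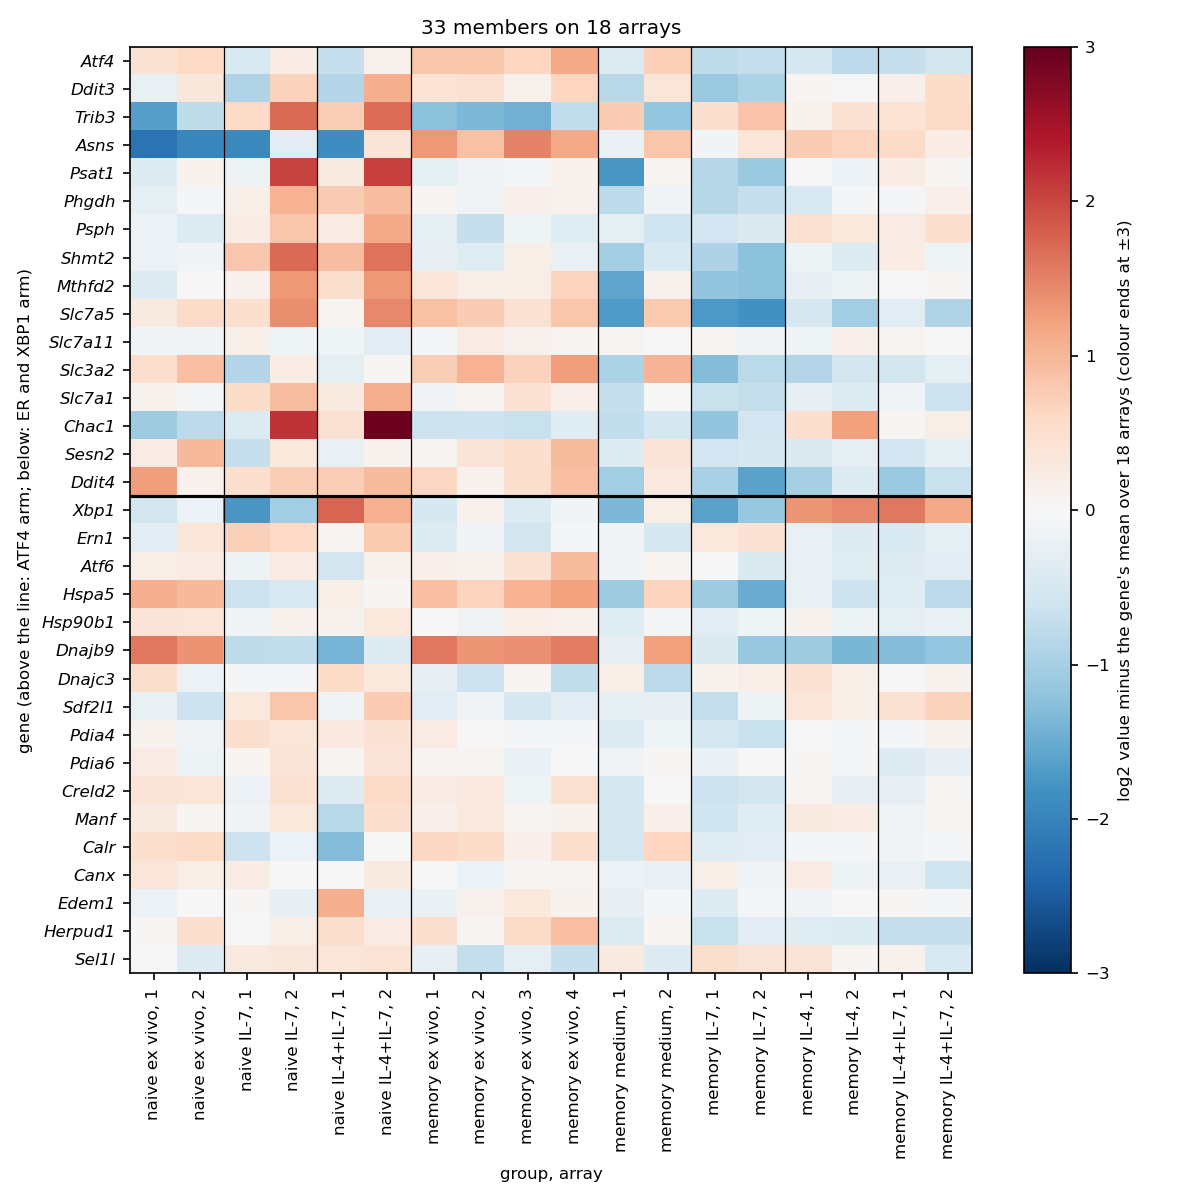
Log2 value of each of the 33 genes minus that gene's mean over the 18 arrays, with arrays in columns by group and the ATF4 arm above the line. Dnajb9 and Hspa5 are high ex vivo, Xbp1 is high where IL-4 was added, and Asns is low in naive cells ex vivo.

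Directly after sorting, memory and naive cells differed in 1 of the 32 genes, Asns, against 1.93% of all genes tested. Asns makes asparagine from aspartate and glutamine. It read 4.02 and 4.28 in naive cells and 7.56, 7.13, 7.73 and 7.37 in memory cells. The groups lay far apart, and the naive values sat at the filter value, where the size of a difference is uncertain. The log2 difference was 3.29 (SE 0.51, adjusted p = 0.00236). Its other probe set differed by 3.99 and also passed. Without naive ex vivo array 1 the call was lost (adjusted p = 0.0568, log2 difference 3.16), and without medium array 2 it held (adjusted p = 0.00108, against 4.39% of all genes past the test). The other 31 genes ranged from -0.56 (Dnajc3, an ER co-chaperone) to 0.56 (Mthfd2) with adjusted p of at least 0.296. The median difference was 0.21 in the ATF4 arm, -0.05 in the ER arm and 0.03 over all genes tested. Xbp1 differed by 0.15 (95% interval -0.61 to 0.91) and Atf4 by 0.34 (-0.28 to 0.97). Memory arrays also read higher for the red cell precursor marker Alas2 (mean 9.04 against 5.84). The list to which it belongs (2 of 4 genes found, with Alas2 alone above the filter value) averaged 5.64 to 7.44 on memory and 4.59 to 4.70 on naive arrays. Lists of other cell types also read higher on memory arrays without overlap. B cell markers (5 of 6 found) averaged 5.41 to 5.97 against 4.95 to 4.96, plasma cell markers 4.69 to 5.55 against 4.36 to 4.53, and CD4 T cell markers (3 of 3) 5.60 to 5.80 against 5.33 to 5.37. Platelet markers (4 of 4) averaged 5.10 to 5.56 against 4.94 to 4.99, and the myeloid list (7 of 7) reached 4.75 on naive arrays and began at 4.76 on memory arrays. The part of these lists in the Asns difference was not tested.

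Culture of memory cells changed these genes most. After 20 hours in IL-7, 15 of the 32 genes were lower in memory cells than ex vivo and 2 were higher, where 8.85% of all genes tested were lower and 11.1% higher (19.9% in all). In the ATF4 arm 9 fell and 1 rose, with a median difference of -1.01. In the ER arm 6 fell and 1 rose, with a median of -0.63. The median over all genes was -0.05.

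Among the regulators of the ATF4 arm, Atf4 fell and Trib3 rose. Atf4 read 12.40, 12.39, 12.22 and 12.72 on the ex vivo memory arrays and 10.80 and 10.87 in IL-7, and fell by 1.60 (SE 0.29, adjusted p = 0.00539). It has 3 probe sets, of which a second was tested, differed by -1.0 and did not pass. Trib3, a pseudokinase gene that ATF4 induces and whose product restrains ATF4, read 8.24, 8.11, 8.02 and 8.73 ex vivo and 9.95 and 10.32 in IL-7, a rise of 1.86 (SE 0.46, adjusted p = 0.0146). The groups did not overlap for either gene, and Trib3 went against most of its arm. Ddit3, which encodes the death-promoting factor CHOP, read 9.69, 9.73, 9.41 and 9.92 ex vivo and 8.17 and 8.33 in IL-7. Its difference of -1.44 (SE 0.49, adjusted p = 0.0511) narrowly missed the threshold.

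Of the enzymes, Phgdh, Shmt2 and Mthfd2 fell. Phgdh makes the first step of serine synthesis. It read 11.42, 11.27, 11.54 and 11.51 ex vivo and 10.53 and 10.68 in IL-7, a fall to below every ex vivo array, by 0.83 (adjusted p = 0.0237). Shmt2, which splits serine in mitochondria, read 9.18, 9.04, 9.60 and 9.18 ex vivo and 8.48 and 8.18 in IL-7, and fell by 0.92 (adjusted p = 0.0263). The 3 other Shmt2 probe sets differed by -0.80 to -0.52, and 1 of them passed. Mthfd2 carries the resulting one-carbon unit onward. It read 10.95, 10.79, 10.80 and 11.27 ex vivo and 9.41 and 9.37 in IL-7, and fell by 1.56 (SE 0.39, adjusted p = 0.0159). Asns, Psat1 and Psph differed by -1.06, -0.91 and -0.15 and did not pass.

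Slc7a5 and Slc3a2 fell furthest in this arm. Slc7a5, the leucine carrier, dropped from 10.50, 10.39, 10.09 and 10.47 ex vivo to 7.91 and 7.81 in IL-7, by 2.50 (SE 0.52, adjusted p = 0.00784), which is 5.66-fold. Slc3a2, its heavy-chain partner CD98, dropped from 11.93, 12.21, 11.88 and 12.44 to 9.88 and 10.38, by 1.98 (SE 0.42, adjusted p = 0.00797). Both partners of the carrier thus fell together. Slc7a1, a carrier of arginine and lysine, went from 9.75, 9.94, 10.29 and 10.01 to 9.20 and 9.15, and fell by 0.83 (SE 0.25, adjusted p = 0.0328), while a further probe set, the only other tested, differed by -0.83 and did not pass. The mTORC1 inhibitor genes were lower too. Ddit4 went from 10.80, 10.31, 10.69 and 11.08 to 9.20 and 8.55, and fell by 1.84 (SE 0.37, adjusted p = 0.00692). Sesn2, a leucine sensor, went from 7.17, 7.47, 7.60 and 8.04 to 6.51 and 6.60, and fell by 1.01 (SE 0.31, adjusted p = 0.0334). Chac1, whose product breaks down glutathione, differed by -0.30 (SE 0.62, adjusted p = 0.764).

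**Figure D2:**
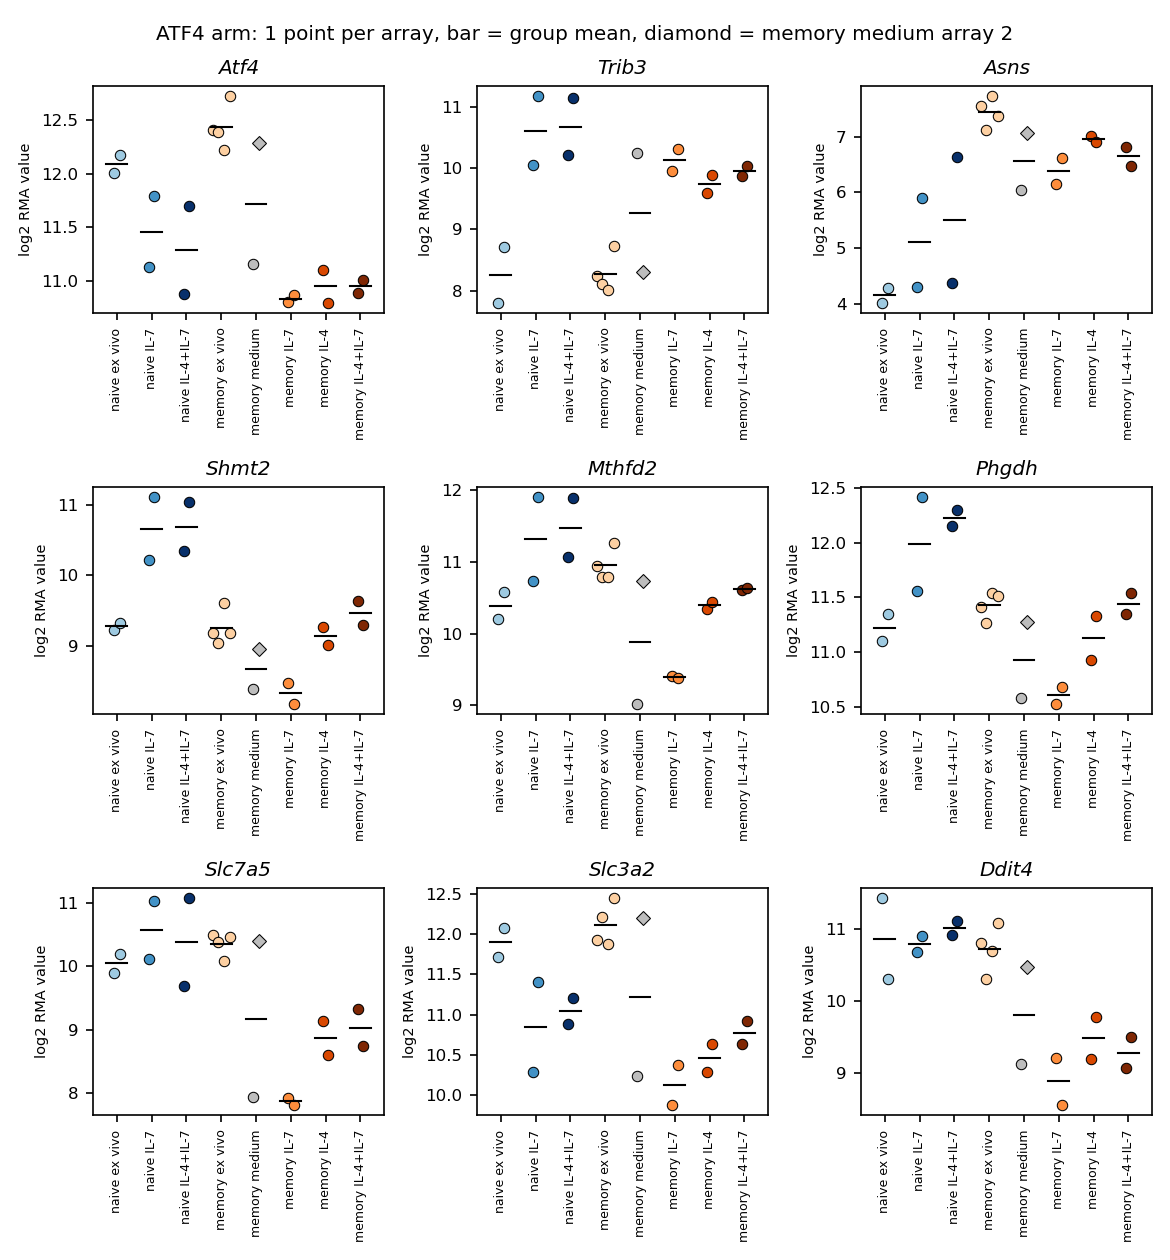
Log2 value of 9 ATF4 arm genes on each array, by group, with the bar at the group mean and a diamond for medium array 2. Slc7a5 sits at 7.81 and 7.91 in memory cells in IL-7 and at 10.09 to 10.50 in memory cells ex vivo, and Asns in naive cells ex vivo sits below every memory array.

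In the ER arm the central chaperone gene Hspa5, which encodes BiP, read 13.48, 13.25, 13.62 and 13.78 ex vivo and 11.51 and 11.09 in IL-7. It fell by 2.23 (SE 0.34, adjusted p = 0.00408), or 4.71-fold, and both its other probe sets were also lower and past the test (-0.65 and -2.75). Dnajb9, a BiP co-chaperone that XBP1 induces, read 12.01, 11.77, 11.82 and 11.98 ex vivo and 10.01 and 9.31 in IL-7, and fell by 2.24 (SE 0.34, adjusted p = 0.00408). These were the largest falls of the arm, and every IL-7 array lay below every ex vivo array. Xbp1 went from 11.11, 11.72, 11.17 and 11.50 to 9.98 and 10.45, and fell by 1.16 (SE 0.36, adjusted p = 0.0349). The 3 other Xbp1 probe sets differed by -1.28 to -0.52, and 1 of them passed. Herpud1, which serves ER-associated degradation, went from 10.09, 9.69, 10.19 and 10.52 to 8.95 and 9.29, and fell by 1.0 (SE 0.22, adjusted p = 0.00893). Creld2, a folding factor, went from 9.67, 9.73, 9.32 and 9.90 to 8.80 and 8.89, and fell by 0.81 (SE 0.26, adjusted p = 0.0415), a call lost when array medians were aligned (adjusted p = 0.0522). Each of these 3 lay below all ex vivo arrays.

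Pdia4, a disulphide isomerase gene, read 6.19, 5.94, 5.92 and 5.89 ex vivo and 5.42 and 5.28 in IL-7, and fell by 0.63 (SE 0.14, adjusted p = 0.00915), while its other probe set differed by -0.26 and did not pass. Sel1l, a subunit of the degradation complex, was higher in IL-7, at 10.28 and 10.14 against 9.52, 9.04, 9.48 and 9.07, by 0.93 (SE 0.22, adjusted p = 0.0127). That rise rests on 1 probe set, since its 4 others lay between -0.10 and 0.09 and the mean over probe sets did not pass (adjusted p = 0.370). The chaperones Hsp90b1 (-0.27) and Dnajc3 (0.54), the isomerase Pdia6 (-0.09), the lectins Calr (-0.80) and Canx (0.05) and the sensors Ern1 (0.64) and Atf6 (-0.63) did not pass. Nor did Sdf2l1 (-0.13), Manf (-0.64) and Edem1 (-0.30).

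These calls need both IL-7 memory arrays. Without array 1, 2 of the 17 (Hspa5 and Dnajb9) passed, against 0.392% of all genes, and without array 2, 0 passed (0.0218% of all genes, and adjusted p from 0.0615 to 0.203), with log2 differences from -2.45 to 1.67 in the latter fit. Ex vivo arrays mattered less. Creld2 was lost without ex vivo array 1, Slc7a1, Sesn2, Xbp1 and Creld2 without array 2, Shmt2, Slc7a1 and Sesn2 without array 3, and Phgdh, Slc7a1, Sesn2, Xbp1 and Creld2 without array 4. B cell markers averaged 5.22 to 5.29 in IL-7, below the ex vivo arrays, and their part was not tested. Without medium array 2, all 17 passed and Ddit3, Calr (lower) and Ern1 (higher) joined them, against 26.9% of all genes.

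Memory cells in medium alone showed no gene past the test against ex vivo cells, over all genes (0%) or among the 32, while the medium arrays disagreed. Slc7a5 read 7.93 and 10.40 on medium arrays 1 and 2, Hspa5 11.52 and 13.25 and Dnajb9 10.19 and 11.67. In each of these genes array 1 sat just above the IL-7 values and array 2 at or near the ex vivo values. With array 1 alone for the group, whose spread is then taken from the other groups, 10 of the genes were lower and 1 higher, against 16.4% of all genes. The fallers were Atf4, Phgdh, Mthfd2, Slc7a5, Slc3a2, Ddit4, Xbp1, Hspa5, Dnajb9 and Herpud1, from -2.43 (Slc7a5) to -0.85 (Phgdh), and Trib3 was higher by 1.96 (SE 0.43, adjusted p = 0.00671). The fall of Hspa5 was 2.01 (SE 0.24, adjusted p = 0.00012) in that fit.

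IL-7 against medium in memory cells gave 0 of 32 genes past the test and 0 of 13770 (0%), with limma. At an unadjusted p under 0.05 there were 7 of the 32 and 804 over all. Without medium array 1, 9 of the 32 passed, against 16.3% of all genes, and without medium array 2, 0 did (0% of all genes).

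In naive cells in IL-7, against naive cells ex vivo, 3 genes were higher and 2 lower, where 7% of all genes tested were higher and 5.8% lower (12.8% in all). These counts lie close to those shares, so they do not set the 32 genes apart. Dnajb9 read 12.02 and 11.80 ex vivo and 9.69 and 9.69 in IL-7, and fell by 2.22 (SE 0.39, adjusted p = 0.00428), past the test under every alternative and without any 1 array of the comparison. Hspa5 went from 13.69 and 13.56 to 11.93 and 12.13, and fell by 1.59 (SE 0.39, adjusted p = 0.0191). BiP and its co-chaperone gene were thus lower after culture in naive cells as well. The Hspa5 call, unlike that of Dnajb9, was lost when any 1 array of the comparison was left out. The 2 other Hspa5 probe sets differed by -2.32 and -0.27, and 1 of them passed. Trib3 read 7.80 and 8.71 ex vivo and 10.04 and 11.17 in IL-7, higher by 2.35 (SE 0.53, adjusted p = 0.0138). Shmt2 read 9.23 and 9.33 ex vivo and 10.21 and 11.11 in IL-7, higher by 1.38 (SE 0.31, adjusted p = 0.0121). Here the direction of Shmt2 was opposite to that in memory cells. Sdf2l1, which helps BiP hold its clients, read 6.67 and 6.26 and 7.19 and 7.73, higher by 0.99 (SE 0.28, adjusted p = 0.0329). Without naive ex vivo array 1 or naive IL-7 array 2, 1 of the 5 passed (Dnajb9), and without naive ex vivo array 2, Dnajb9 and Trib3 did. Without medium array 2, 5 were higher and 5 lower, with Phgdh (0.76), Psph (0.82), Slc3a2 (-1.05), Xbp1 (-1.03) and Calr (-0.92) added, against 20.1% of all genes.

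**Figure D3:**
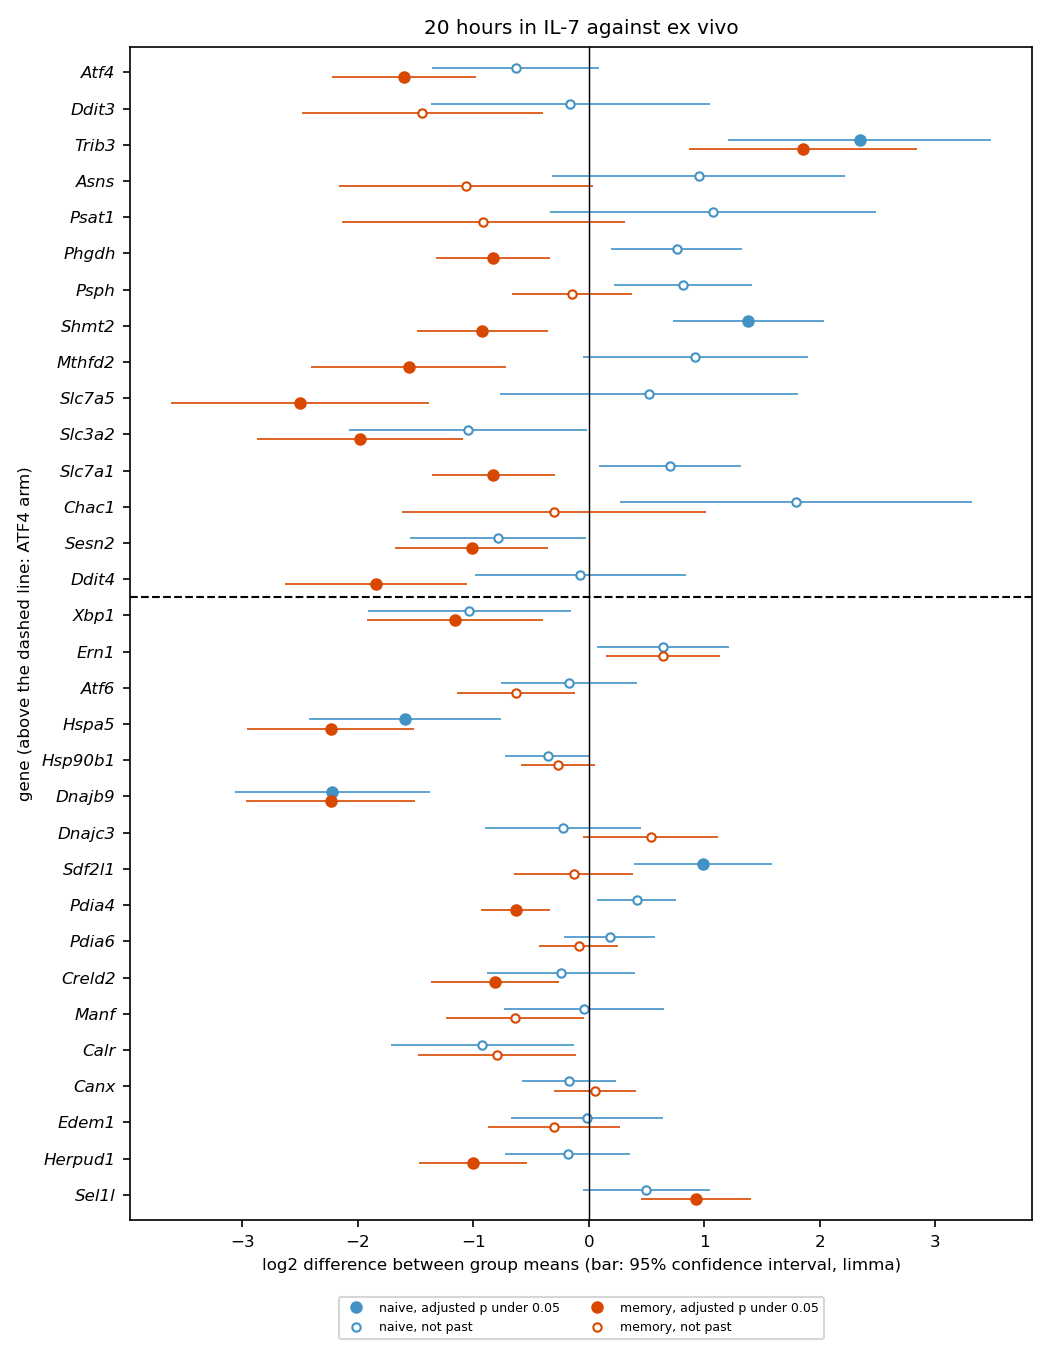
Log2 difference between cells after 20 hours in IL-7 and ex vivo cells for the 32 tested genes, with 95% intervals, in naive cells (blue) and memory cells (orange), and filled where past the test. Hspa5 and Dnajb9 are left of 0 in both, Trib3 is right of 0 in both, and Shmt2 lies on opposite sides.

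The median difference on culture in IL-7 was 0.76 in naive and -1.01 in memory cells for the ATF4 arm, and -0.17 and -0.63 for the ER arm. The difference of the culture responses, memory minus naive, was below 0 for all 15 tested ATF4 arm genes and for 11 of 17 in the ER arm, while 40.8% of all genes were above 0. Its median was -1.59 in the ATF4 arm, -0.27 in the ER arm and -0.09 over all genes. None of the 32 passed (0.0508% of all genes did). Shmt2 came closest at -2.31 (SE 0.40, adjusted p = 0.0525), followed by Pdia4 at -1.05 (SE 0.21, adjusted p = 0.0972). The difference for Slc7a5 was -3.03 (SE 0.80, adjusted p = 0.175) and for Mthfd2 -2.48 (SE 0.60, adjusted p = 0.147). Without medium array 2, Phgdh, Shmt2, Mthfd2, Slc7a5 and Pdia4 passed, all lower, with adjusted p from 0.0143 to 0.0323, against 0.922% of all genes. Without naive IL-7 array 1, Phgdh and Shmt2 passed, against 0.102% of all genes. The 95% intervals of this difference for Trib3, Hspa5, Dnajb9 and Xbp1 spanned 0: -2.0 to 1.01, -1.75 to 0.46, -1.13 to 1.10 and -1.29 to 1.04.

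Compared directly in IL-7, memory cells held less of 7 of the 32 genes than naive cells and more of none, where 1.43% of all genes tested were lower (2.7% in either direction). This comparison uses the same IL-7 arrays as those above. Shmt2 read 8.48 and 8.18 in memory and 10.21 and 11.11 in naive cells, and was lower in memory cells with a difference of -2.33 (SE 0.31, adjusted p = 0.000666). It passed under every alternative and without any 1 array of the comparison, and its 3 other probe sets passed too. Mthfd2 read 9.41 and 9.37 against 10.73 and 11.90 (-1.92, adjusted p = 0.0366). Phgdh read 10.53 and 10.68 against 11.56 and 12.41 (-1.38, adjusted p = 0.0111). The serine and folate genes were thus lower in memory cells on every array. Slc7a5 showed the widest gap, at 7.91 and 7.81 against 10.12 and 11.03 (-2.71 (SE 0.60, adjusted p = 0.0261)). Slc7a1 read 9.20 and 9.15 against 10.40 and 10.80 (-1.43, adjusted p = 0.0146), but the 1 other probe set tested differed by -0.82 and did not pass, and the call was lost with the mean over probe sets (adjusted p = 0.0886). Ddit4 read 9.20 and 8.55 against 10.68 and 10.90 (-1.91, adjusted p = 0.0267), with no other probe set. None of these 6 genes overlapped between the groups, which adds little to the test that chose them. How many of all genes separate in this way was not counted.

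The only ER arm gene among the 7 was Pdia4, at 5.42 and 5.28 against 6.43 and 6.31 (-1.02 (SE 0.16, adjusted p = 0.00253)), and its other probe set differed by 0.07, so that the mean over both did not pass (adjusted p = 0.122). The median difference was -1.38 in the ATF4 arm, -0.27 in the ER arm and -0.05 over all genes. Psat1 (-1.92, adjusted p = 0.174), Psph (-1.03, adjusted p = 0.0694) and Chac1 (-1.75, adjusted p = 0.281) did not pass. Asns was the only tested ATF4 arm gene with a difference above 0 (1.28, adjusted p = 0.37). With 1 array of a group left out, between 1 and 5 of the 7 passed. Without memory IL-7 array 2 only Shmt2 did, without memory IL-7 array 1 or naive IL-7 array 2 Pdia4 and Shmt2 did, and without naive IL-7 array 1 Slc7a5 and Ddit4 were lost. Without medium array 2, Psph joined them (8 genes, against 4.8% of all). Alas2 averaged 8.57 in memory cells in IL-7 and 4.57 in naive cells in IL-7 (list means 5.20 to 6.69 against 3.78 to 4.08), and the Gapdh 3′ minus 5′ difference also ran higher in cultured memory cells. In the same arrays B cell markers averaged 5.22 to 5.29 against 5.04 to 5.05, CD4 T cell markers 5.76 against 5.30 to 5.39, and plasma cell markers 4.72 to 5.51 against 4.59 to 4.70. The part of these values in the results was not tested.

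The naive groups were uneven within themselves. Chac1 read 4.78 and 7.35 on the naive IL-7 arrays and 5.65 and 8.13 with IL-4 added. Psat1, the aminotransferase of serine synthesis, read 8.93 and 11.12 and 9.37 and 11.13, and Ddit3 8.38 and 9.97 and 8.40 and 10.36. Of the 16 ATF4 arm genes, Slc7a11 included, 15 were higher on array 2 than on array 1 in naive cells in IL-7 (median gap 0.96) and 15 with IL-4 and IL-7 (0.83), where 49.6% and 51.7% of all genes tested were. In naive cells ex vivo 12 of the 16 were (0.27). In the ER arm 12 of 17 were higher on array 2 in each cultured naive group, with median gaps of 0.20 and 0.28. In cultured memory groups other than medium the median of array 2 minus array 1 was 0.02 to 0.12 in the ATF4 arm. Gaps of opposite sign cancel in that median, and single genes there ran from -0.65 to 0.76. No label says what array 2 of the naive groups shares.

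IL-4 raised Xbp1 in all 3 comparisons that test it and none of the other 31 genes past the test. Of the 32 genes, Xbp1 alone passed in memory cells given IL-7 (1.81% of all genes did) and in naive cells with IL-7 (1.26%), and it was joined by Dnajb9, which was lower, in memory cells without IL-7 (1.94%). In memory cells Xbp1 read 9.98 and 10.45 in IL-7 and 13.17 and 12.73 with IL-4 added, a rise of 2.73 (SE 0.41, adjusted p = 0.00274) or 6.64-fold. In naive cells it read 9.84 and 10.54 in IL-7 and 13.34 and 12.66 with IL-4, a rise of 2.80 (SE 0.41, adjusted p = 0.00243). In both cell types every array with IL-4 lay above every array without it, the ex vivo arrays included. Without IL-7, memory cells read 12.93 and 13.04 in IL-4 and 10.23 and 11.76 in medium, higher by 1.99 (SE 0.41, adjusted p = 0.0229), and by 2.75 (SE 0.36, adjusted p = 0.000955) without medium array 2, where it alone passed (1.54% of all genes). In naive cells Xbp1 also passed alone without that array (2.11%). The memory and naive responses in IL-7 differed by -0.07 (95% interval -1.31 to 1.17). The 3 other Xbp1 probe sets were higher in each of these comparisons, by 0.77 to 2.96. All 3 passed in memory cells given IL-7, 2 without it and 2 in naive cells. The values were read as total Xbp1 message, and splicing was not analysed.

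The calls for Xbp1 were lost without memory IL-7 array 1 (adjusted p = 0.0515), without naive IL-7 array 1 (0.0604) and without either IL-4 array in cells without IL-7 (0.148 and 0.178). A fit of only the groups compared also lost them in memory cells without IL-7 (adjusted p = 0.573) and in naive cells (0.0898), where 4 arrays give the spread. Without medium array 1, 7 genes passed in memory cells without IL-7, against 17.2% of all genes, and without naive IL-4 and IL-7 array 2, Edem1 passed beside Xbp1 in naive cells, against 4.88%.

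**Figure D4:**
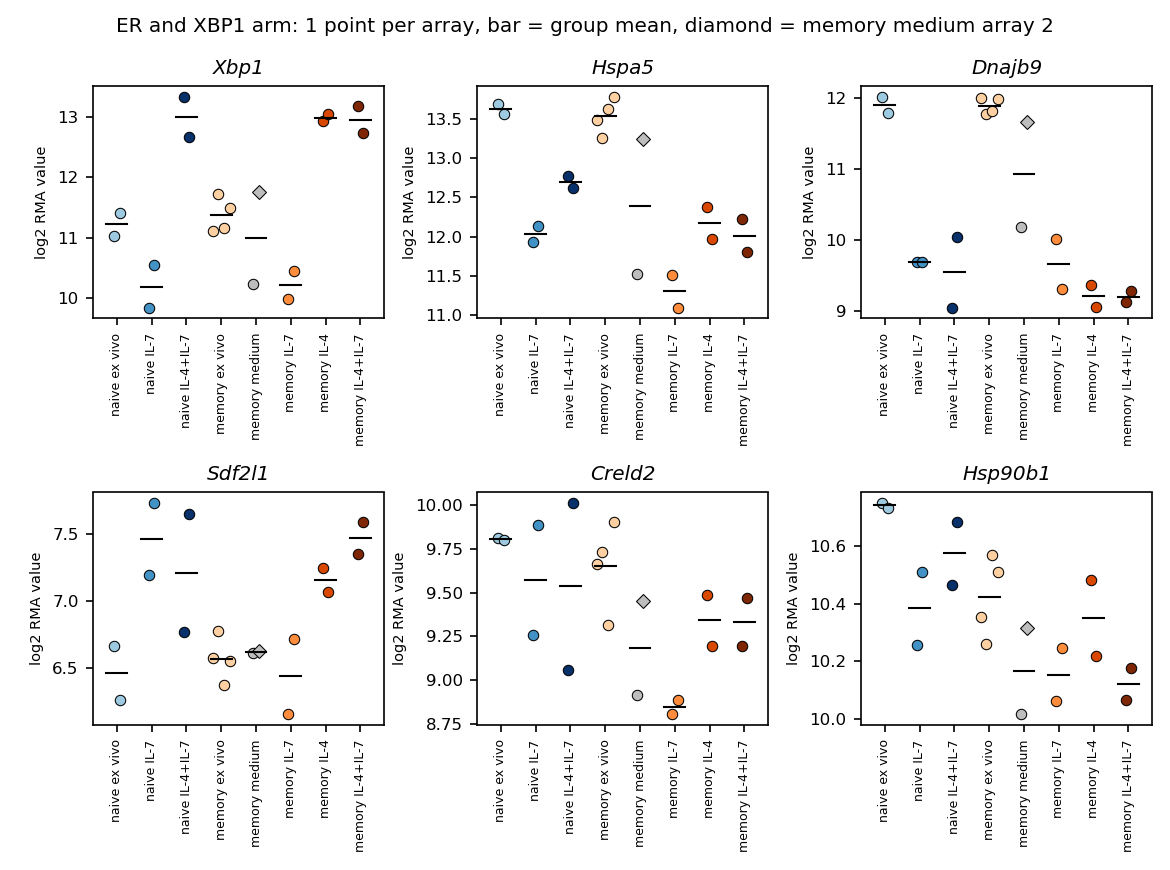
Log2 value of 6 ER and XBP1 arm genes on each array, by group, with the bar at the group mean and a diamond for medium array 2. Xbp1 lies at 12.66 to 13.34 on the 6 arrays with IL-4 and at 9.84 to 11.76 on the 12 without, while Hspa5 and Dnajb9 are highest ex vivo.

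No other ER arm gene rose past the test with IL-4. Hspa5 differed by 0.71, -0.21 and 0.66 in memory cells with IL-7, memory cells without it and naive cells (adjusted p = 0.434, 0.885 and 0.707). The value of -0.21 rests on medium array 2, where Hspa5 read 13.25 against 11.52 on array 1. Without medium array 2 the difference in memory cells without IL-7 was 0.65. The intervals for memory cells with IL-7 were -0.12 to 1.55 for Hspa5, -0.40 to 0.34 for Hsp90b1, -0.62 to 0.17 for Pdia6 and -0.85 to -0.04 for Canx. Dnajb9, a known XBP1 target, was below 0 in all 3 comparisons. It read 9.36 and 9.05 in IL-4 against 10.19 and 11.67 in medium, and fell by 1.72 (SE 0.39, adjusted p = 0.0366), but by 0.98 (SE 0.34, adjusted p = 0.286) without medium array 2. That call was also lost without either IL-4 array (adjusted p = 0.164 and 0.274). With IL-7 present Dnajb9 differed by -0.45 in memory and -0.14 in naive cells. Edem1, which marks misfolded glycoproteins for removal, differed by 0.21 and 0.54, and Sdf2l1 by 1.03 (SE 0.28, adjusted p = 0.082) and -0.25. The sensor gene Ern1 differed by -0.75 (SE 0.27, adjusted p = 0.203) in memory cells with IL-7.

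The median IL-4 difference in the ER arm was -0.03 in memory cells with IL-7, 0.16 without IL-7 and -0.01 in naive cells, against 0.08, 0.06 and 0.00 over all genes. The value without IL-7 takes in both medium arrays, and medium array 2 read above array 1 by a median of 0.28 in this arm. Plasma cell markers lay at like levels with and without IL-4. Jchain averaged 6.32 in memory cells in IL-7 and 5.93 with IL-4 added, and the list averaged 4.72 to 5.51 and 4.64 to 5.74. In naive cells the list averaged 4.59 to 4.70 in IL-7 and 4.51 to 4.53 with IL-4 added.

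In the ATF4 arm the median IL-4 difference was 0.84 in memory cells with IL-7, 0.27 without IL-7 and 0.16 in naive cells. The value of 0.27 takes in both medium arrays, and medium array 2 read above array 1 by a median of 0.90 in this arm. It therefore cannot be set directly beside the value with IL-7. No gene of the arm passed in any of the 3 comparisons. In memory cells with IL-7, 14 of the 15 were above 0, as were 60.2% of all genes. Shmt2 came closest to the threshold, at 8.48 and 8.18 in IL-7 and 9.63 and 9.29 with IL-4 (1.13 (SE 0.31, adjusted p = 0.0819)), values that do not overlap. Mthfd2 read 9.41 and 9.37 and 10.61 and 10.64 (1.23 (SE 0.45, adjusted p = 0.225)), Phgdh 10.53 and 10.68 and 11.35 and 11.54 (0.84 (SE 0.27, adjusted p = 0.15)), and Psph, the phosphatase that completes serine, 7.79 and 7.91 and 8.61 and 8.83 (0.87 (SE 0.28, adjusted p = 0.152)). With IL-4 added, these serine and folate genes lay above the IL-7 arrays in each case, though none of them passed. How many of all genes separate so between 2 and 2 arrays was not counted, so the separation adds little. Without medium array 2, Shmt2 (adjusted p = 0.0424), Mthfd2 (0.0484) and Pdia4 (0.0364) passed beside Xbp1, against 3.91% of all genes. In a fit of these 4 arrays alone, where 7.52% of all genes passed, 10 genes besides Xbp1 did (Chac1, Ddit3, Mthfd2, Phgdh, Psat1, Psph, Sdf2l1, Shmt2 and Slc7a5 higher, and Ern1 lower). In naive cells Shmt2 differed by 0.03 (95% interval -0.63 to 0.68). The difference of the IL-4 responses, memory minus naive, passed for 0 of the 32 (0.0726% of all genes), at 1.10 (SE 0.43, adjusted p = 0.448) for Shmt2 and 1.28 (SE 0.39, adjusted p = 0.34) for Sdf2l1. Without medium array 2 it passed for 0 again (0.145% of all genes), and without naive IL-4 and IL-7 array 2, Manf and Sdf2l1 passed (2.67%).

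**Figure D5:**
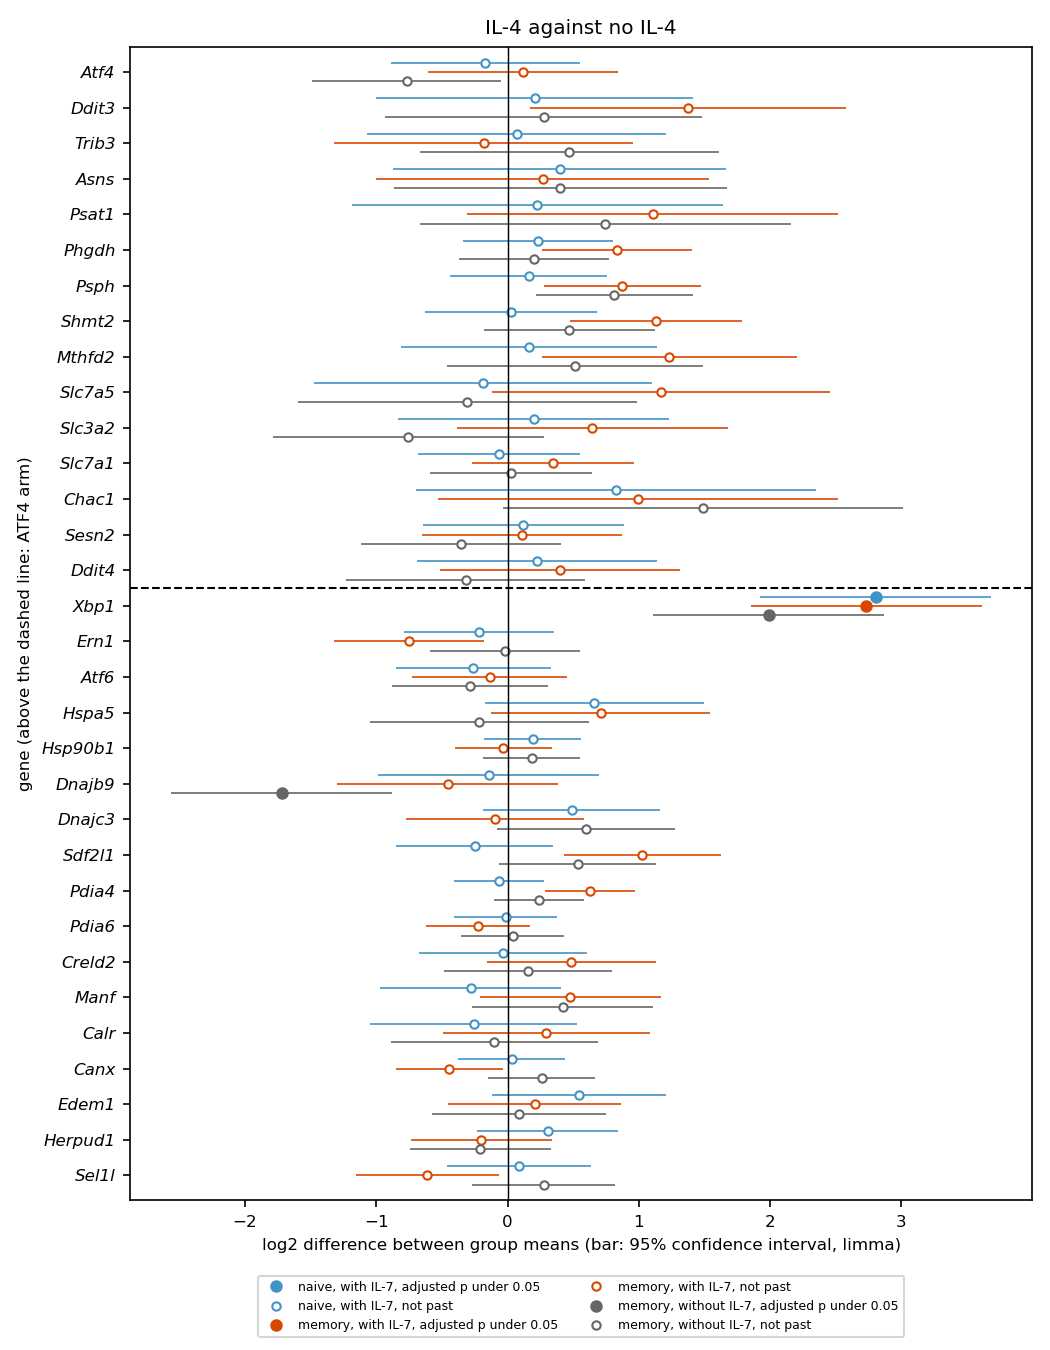
Log2 difference between cells with and without IL-4 for the 32 tested genes, with 95% intervals, in naive cells with IL-7 (blue), memory cells with IL-7 (orange) and memory cells without IL-7 (grey), and filled where past the test. Xbp1 stands to the right in all 3 comparisons and Dnajb9 to the left in memory cells without IL-7.

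The promoter matches shown above can be set beside these values. Of the 7 ER arm genes with an ERSE, 2 (Hspa5 and Creld2) were lower in memory cells in IL-7 than ex vivo, with a median of -0.27 over the 7. Of all genes tested, 8.85% were lower and 11.1% higher there. Of the 8 with a window but no match to the ERSE spelling searched, 4 were lower (Xbp1, Dnajb9, Pdia4 and Herpud1) and 1 higher (Sel1l). Their median was -0.47. For IL-4 in memory cells given IL-7 the medians were -0.03 and 0.00, and 0 of 7 and 1 of 8 passed, against 1.81% of all genes. In the fit without medium array 2, 3 of the 7 were lower in memory cells in IL-7, and 4 of the 8 were lower and 2 higher, against 26.9% of all genes. With IL-4, 0 of 7 and 2 of 8 passed in that fit, against 3.91% of all genes. Of the 5 genes with the amino acid response element core, Trib3 was higher on culture in both cell types, Asns was higher in memory cells ex vivo, Herpud1 fell in memory cells, Chac1 passed in no comparison and Slc7a11 was not tested. The genes with the amino acid response element core thus shared no single direction. In memory cells in IL-7 the 2 ERSE genes past the test were lower, with differences over the 7 from -2.23 to 0.54. With 19.9% of all genes past the test there, 2 of 7 does not set the ERSE genes apart. Most of the genes without the ERSE match that passed there were lower too. In naive cells in IL-7 against ex vivo, 1 of the 7 was lower and 0 higher, and 1 of the 8 was lower and 1 higher. Of all genes, 5.8% were lower and 7% higher there.

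Other genes of both pathways were counted from longer lists. Of 43 further amino acid response genes tested, 12 were lower and 2 higher in memory cells in IL-7 than ex vivo, where 8.85% of all genes were lower and 11.1% higher. The furthest falls were Atf3, a stress-induced factor, at -5.12 (SE 1.14, adjusted p = 0.0096), Cebpb, a partner of ATF4, at -3.18 and Got1, an aspartate aminotransferase, at -2.80. Pck2, the mitochondrial PEPCK and an ATF4 target, was higher by 1.42 and the glutamine carrier gene Slc38a1 by 0.59. In naive cells 10 were higher and 3 lower, where 7% and 5.8% of all genes were. Pck2 was higher by 1.97, the methionyl-tRNA synthetase gene Mars1 by 1.93 and the proline synthesis gene Aldh18a1 by 1.39. Eif2ak3, which encodes PERK, fell by 2.33, Ppp1r15a, which encodes the eIF2α phosphatase subunit GADD34, fell by 1.76 and Slc38a2 fell by 0.94. In IL-7, 13 of the 43 were lower in memory than in naive cells (1.43% of all genes were) and 0 higher, led by Shmt1 (-2.20), Cars (-1.54) and Mars1 (-1.52). The median over the 43 was -0.67 in that comparison. Ex vivo, Eif2ak3 was lower in memory cells (-1.18, adjusted p = 0.0219) and the other 42 did not pass, where 1.93% of all genes did. With IL-4, the tryptophanyl-tRNA synthetase gene Wars was higher in memory cells with IL-7 (1.0, adjusted p = 0.0123) and without it (1.02). Mars1 was also higher without it (0.95), and 0 of 43 passed in naive cells. Of all genes, 1.81%, 1.94% and 1.26% passed in these comparisons, in that order. With medium array 2 left out, 12 were lower and 2 higher in memory cells in IL-7, where 26.9% of all genes passed. In naive cells 13 were higher and 5 lower, where 20.1% of all genes passed. In IL-7, 15 were lower in memory than in naive cells, against 4.8% of all genes in either direction. In that fit the median over the 43 was -0.20 in memory cells in medium, where array 1 stands alone. Atf3 was higher in memory cells ex vivo (3.55, adjusted p = 0.0123). The difference of culture responses then passed for 5 of the 43, against 0.922% of all genes, and for none with the array. These were Shmt1, Mars1, Iars, Mthfd1 and Sars, all lower. With IL-4, 2 then passed in memory cells given IL-7, against 3.91% of all genes, and Wars was higher by 0.99 without IL-7.

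Of 43 further ER genes tested, 6 were lower and 3 higher in memory cells in IL-7, and 4 lower and 3 higher in naive cells. These 9 and 7 of 43 lie close to the shares of all genes past the test, 19.9% and 12.8%, so the counts do not set the list apart. Syvn1, the ubiquitin ligase that works with SEL1L, fell by 1.40 in memory cells (adjusted p = 0.0131) and by 1.39 in naive cells (adjusted p = 0.0323). In memory cells Txndc11 (-0.92) and Srpr (-0.68) were also lower, and Dnajc10 (1.26), Creb3l2 (1.19) and Txndc5 (0.83) were higher. In naive cells Ero1b (-1.09) and Edem3 (-0.92) were lower and Edem2 (1.02), Derl2 (0.80) and Atf6b (0.79) higher. In IL-7, 1 of the 43, Atf6b, was lower in memory than in naive cells (-0.75), as were 1.43% of all genes. IL-4 raised 1 of them, the lectin gene Os9 of ER-associated degradation, in memory cells with IL-7 (0.82, adjusted p = 0.00662), and 0 of 43 passed in the other IL-4 comparisons. When medium array 2 was left out, 8 were lower and 6 higher in memory cells in IL-7, where 26.9% of all genes passed. In naive cells 5 were lower and 4 higher, where 20.1% of all genes passed. The median over the 43 in memory cells in medium was -0.03 in that fit.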

How the data were processed

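The deposited table holds log2 values from RMA, which corrects the background and quantile-normalises, made by the authors for every probe set of each array. RMA and limma are named, without a version, in the submitters' processing notes, and per the labels' protocols RNA was amplified and biotin-labelled by in vitro transcription. Of 45101 probe sets, 34958 had 1 gene symbol, 932 several and 9211 none in the platform annotation. The brightest probe set stood for each of 18194 genes, and 13770 lay above the 40th percentile (4.06) on at least 2 arrays. A model of the 8 group means was fitted with limma 3.58.1 in R 4.3.3 (10 residual and 4.13 prior degrees of freedom), with two-sided contrasts and Benjamini-Hochberg adjustment over all genes tested. The script was tested on simulated data. The members and lists were chosen with earlier results of these data known. All 33 members are named, and of the longer lists at most the 3 called genes that moved furthest each way. Alternatives were the filter, the mean over probe sets, the variance model, aligned array medians, a replicate block, only the groups compared, and each array left out. The number of arrays limits precision, and a p-value reflects only how these arrays vary, which may be technical.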

Additional observations from a re-analysis of the deposited data

Results flagged for a closer look

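In ex vivo memory cells, the only group of 4 arrays, each of the 33 genes was checked for an array far from the rest, and 2 stood out. Chac1 read 4.82 on array 4, where the others lay between 4.52 and 4.57, and its gap took up 0.835 of the group's range. Pdia4 read 6.19 on array 1, where the others lay between 5.89 and 5.94 (0.838 of the range). Chance marks about 1 group in 20, and both gaps are small on the log2 scale.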

How the results depend on the processing

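The counts of the 32 tested genes past the threshold kept to within 1.5 times of the values given under no filter, a stricter filter, another variance model and aligned array medians. A fit of only the groups compared gave 11 genes for IL-4 in memory cells given IL-7, where 7.52% of all genes passed against 1.81% with all arrays. It gave 0 for IL-4 in memory cells without IL-7, 0 for IL-4 in naive cells and 6 for the difference of culture responses. The mean over probe sets gave 1 gene for that difference. With the replicate number as a block, 10 genes passed in memory cells in IL-7 and 1 with IL-4 in memory cells without IL-7. For the block, the mean over probe sets and the other fits of only the groups compared, the share of all genes is not given here. Those counts thus do not tell a change in these genes from a change over all genes. The 7 genes not past the test with the block in memory cells in IL-7 were Phgdh, Shmt2, Slc7a1, Sesn2, Xbp1, Herpud1 and Creld2, with adjusted p from 0.0529 to 0.14. Outside that comparison Dnajb9 with IL-4 in memory cells without IL-7 (adjusted p = 0.0848) and Ddit4 in memory against naive cells in IL-7 (0.0573) did not pass with the block either, and it added Phgdh and Sesn2 in naive cells in IL-7 against ex vivo. No label says that the replicate numbers pair the arrays. Same-numbered arrays' deviations from their group means correlated from -0.13 to 0.51 over the genes tested (-0.24 to 0.72 over the members), so not all were above 0.1. Among the cytokine cultures of a cell type they ran from 0.25 to 0.51, and the lowest values came from pairs with ex vivo or medium arrays. The block turned no direction. With 1 array left out, the counts ran from 0 to 4 for IL-4 in memory cells given IL-7, 0 to 7 without IL-7 and 0 to 2 in naive cells. They ran from 0 to 9 for IL-7 against medium, 0 to 1 for memory against naive cells ex vivo, 1 to 10 for naive cells in IL-7 against ex vivo, 0 to 20 for memory cells in IL-7 and 0 to 11 for memory cells in medium. For memory against naive cells in IL-7 they ran from 1 to 8, for the difference of IL-4 responses from 0 to 2 and for that of culture responses from 0 to 5. Leaving out 1 of 2 arrays leaves a lone array that is assumed to vary like the other groups. The share of all genes past the test also moved between such fits, as given above, so these ranges need not be particular to the members. Of 442 values of single called genes under an alternative, 343 stayed past the threshold, 99 did not (83 of them with an array left out) and 0 changed direction. The cause of these shifts was not tested beyond the smaller number of arrays.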
